A study of Mus musculus with 2 samples.

Results

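The mir-290-295 cluster of mouse, a group of microRNA genes best known from embryonic stem cells, was measured here in the embryonic midbrain. Its members were taken by position, as the counted GENCODE microRNA genes that lie within chr7:3218626-3220841 (mm10, plus strand), and were Mir290a, Mir291a, Mir292, Mir291b, Mir293, Mir294 and Mir295, 7 of the 1973 counted genes. The study sequenced RNA shorter than 30 nt from pooled midbrains of B6NCrl embryos of both sexes at embryonic day 10.5. It has 1 group of 2 biological replicates, with 51 embryos in the replicate 2 pool and 69 in the replicate 1 pool. No allele, agent or other treatment is given for either pool, and there is no second stage or tissue among the samples. Each value is hence a level in whole midbrain, and each ratio is one between 2 pools with 1 library each.

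MicroRNAs are cut from hairpin precursors, and the mature strand guides Argonaute proteins to messenger RNAs mainly through its seed, the bases near its 5′ end. The mir-290-295 genes are made as 1 primary transcript that is abundant in mouse embryonic stem cells, the early embryo, primordial germ cells and placenta, and falls as stem cells differentiate. Their products, like those of the mir-302 cluster, are known for speeding the passage of stem cells from G1 to S phase and for opposing let-7, whose members accumulate in differentiating tissue.

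The RefSeq table (GRCm38.p6) held mature sequences for all 7 genes, 13 products in all. They are shown because their seeds tie the cluster together and tie it to genes elsewhere. The capitals mark bases 2 to 8, the seed, and sequences run 5′ to 3′. The products of the 3′ arm were these.
miR-290a-3p: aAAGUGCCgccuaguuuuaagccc
miR-291a-3p: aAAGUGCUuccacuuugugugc
miR-291b-3p: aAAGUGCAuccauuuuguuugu
miR-293-3p: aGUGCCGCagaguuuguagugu
miR-294-3p: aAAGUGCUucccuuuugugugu
miR-295-3p: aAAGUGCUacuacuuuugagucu

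MiR-292a-3p, the 3′ product of Mir292, has no entry in the table, so it is not shown or counted here. The letters AAGUGC stood at bases 2 to 7 in 5 of those shown, and in 8 (0.476%) of the 1679 distinct mature entries of the table. The search was for the letters AAGUGC on the mature strand. In miR-293-3p the letters AGUGC begin at base 1, so that its seed is a different one. MiR-291a-3p, miR-294-3p and miR-295-3p had the same seed. From miR-291a-3p to miR-294-3p the substitutions were A12C, C13U and C22U, counted from the 5′ end, and from miR-291a-3p to miR-291b-3p they were U8A, C13U, G19U and C22U. The products of the 5′ arm fell into other seed groups, 3 with CUCAAAC, 2 with AUCAAAG and 1 each with CUCAAAA and CUCAAAU.
miR-290a-5p: aCUCAAACuaugggggcacuuu
miR-292a-5p: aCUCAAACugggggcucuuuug
miR-293-5p: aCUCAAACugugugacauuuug
miR-291a-5p: cAUCAAAGuggaggcccucucu
miR-291b-5p: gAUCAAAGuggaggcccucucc
miR-294-5p: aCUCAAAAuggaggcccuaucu
miR-295-5p: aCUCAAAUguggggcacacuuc

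Outside the cluster, the table gave the seed of miR-294-3p also to miR-302b-3p and miR-302d-3p, and the seed of miR-291b-3p to miR-350-5p. MiR-292b-5p, whose gene is not among the counted ones, had the seed of miR-294-5p. The table gave no product of Mir302a or Mir302c with the seed of miR-294-3p. As the table lacks miR-292a-3p it may lack others, so a gene not named here may still have the seed. MiR-17-5p, from the abundant mir-17 cluster of dividing cells, holds AAGUGC 1 base further in, at base 3.
miR-302b-3p: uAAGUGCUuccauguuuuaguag
miR-302d-3p: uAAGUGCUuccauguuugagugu
miR-350-5p: aAAGUGCAugcgcuuuggg
miR-17-5p: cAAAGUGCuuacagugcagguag
The counts are per gene and hold reads of both arms together, so that no value below belongs to a single mature product or seed.

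The 7 precursors span 2216 bases. Mir290a (ENSMUSG00000077815.1, chr7:3218626-3218708) lies opposite to Mir290b, and in no host gene, on GENCODE M21, 75 bases from the end of Nlrp12, a gene of inflammatory signalling on the minus strand. The other 6 lie opposite to the 3′-most exon of Nlrp12, within its annotated UTR. They are Mir291a (ENSMUSG00000078008.1, chr7:3218919-3219000), Mir292 (ENSMUSG00000078041.1, chr7:3219189-3219270), Mir291b (ENSMUSG00000078032.1, chr7:3219482-3219560), Mir293 (ENSMUSG00000078035.1, chr7:3220343-3220422), Mir294 (ENSMUSG00000077903.1, chr7:3220641-3220724) and Mir295 (ENSMUSG00000077886.1, chr7:3220773-3220841). The gaps between neighbours range from 48 bases, between Mir294 and Mir295, to 782 bases, between Mir291b and Mir293. All 1822 reads of the cluster in replicate 2 and all 643 in replicate 1 stood in the count column that holds most reads of most genes and was taken as the gene's own strand. The other column had 0, which allows up to 0.165% of the cluster's reads in replicate 2 and 0.467% in replicate 1, against 2.72% in replicate 2 and 2.61% in replicate 1 over all genes. No read was thus counted on the strand of Nlrp12, Mir290b and Mir292b, of which the last 2 overlap Mir290a and Mir292 on M21 and are not among the counted genes.

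The cluster was present at a low level. Its genes together held 0.0495% of the 3682410 gene-assigned reads of replicate 2 (95% Wilson interval 0.0473 to 0.0518%) and 0.0195% of the 3297835 of replicate 1 (0.0180 to 0.0211%), a mean of 345 ± 212 CPM (SD, n = 2), where CPM stands for counts per 1000000 reads assigned to a gene. Intervals here cover counting error only, since the reads carry no molecular identifiers and several may come from 1 molecule. Multiply mapped reads, 29.5% of the replicate 2 library and 30.9% of replicate 1, are not in any gene's count. Mir291a and Mir291b were the members that share a stretch of 20 bases, which lies within their 5′ arms, where the products differ by C1G and U22C. Between the other members the longest shared stretch was 12 bases, and no member shared 20 bases with a microRNA locus outside the cluster. What part of the Mir291a and Mir291b reads went to the multiply mapped class was not tested.

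Mir293, whose 3′ product has the shifted seed, was the highest member, with 994 reads (270 CPM) in replicate 2 and 333 reads (101 CPM) in replicate 1. Among all counted genes it ranked 170th in replicate 2 and 223rd in replicate 1. Mir294, of the AAGUGCU seed group, came next with 373 reads (101 CPM) in replicate 2 and 128 reads (38.8 CPM) in replicate 1. Mir292 had 285 reads (77.4 CPM) in replicate 2 and 117 reads (35.5 CPM) in replicate 1. Each of the 3 was higher in replicate 2.

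The other genes of the AAGUGCU group were much lower than Mir294. Mir291a had 79 reads (21.5 CPM) in replicate 2 and 33 reads (10.01 CPM) in replicate 1. Mir295 had 54 reads (14.7 CPM) in replicate 2 and 20 reads (6.06 CPM) in replicate 1. Mir291b, whose 3′ product has the seed AAGUGCA, had 34 reads (9.23 CPM) in replicate 2 and 12 reads (3.64 CPM) in replicate 1. These 3 genes were again higher in replicate 2, at levels where a read is worth 0.272 CPM in replicate 2 and 0.303 CPM in replicate 1.

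Mir290a, the gene at the start of the cluster, was at the limit of detection. It had 3 reads in replicate 2 (0.815 CPM) and 0 in replicate 1, where a count of 0 allows up to 0.910 CPM. No ratio is given for it, as both libraries lie at or below 3 reads. In mean CPM it was tied with 9 other genes, Gm27379, Mir194-1, Mir466 and Mir547 among them. Mir293 at 185 ± 119 CPM (SD, n = 2) stood in the order of all genes between Mir877 (199 ± 23.2 CPM) and Mir758 (191 ± 15.3 CPM) above and Mir673 (185 ± 17.2 CPM) and Mir135a-2 (184 ± 8.86 CPM) below. These neighbours in level had smaller SDs than Mir293.

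**Figure D1:**
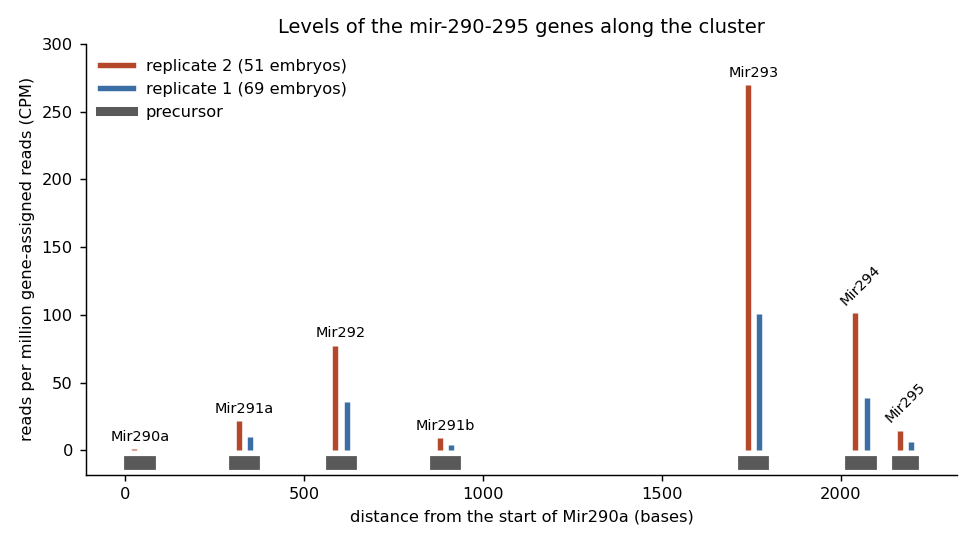
CPM of each member in replicate 2 (left line of each pair) and replicate 1 (right line), placed by its distance in bases from the start of Mir290a, with the precursors drawn to scale below. Mir293 is highest in both libraries (270 CPM in replicate 2 and 101 CPM in replicate 1), while Mir290a is at or near 0.

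The order of the members by level was the same in both libraries, Mir293 first, then Mir294, Mir292, Mir291a, Mir295, Mir291b and Mir290a. It does not follow their order on the chromosome. A small RNA read stands for a whole mature strand, so CPM was not divided by precursor length, and dividing by it gave the same order. Across the libraries, the CPM ranges of Mir293 and Mir294, of Mir294 and Mir292, of Mir291a and Mir295, and of Mir295 and Mir291b overlapped. These ranges include the difference between the pools, so an overlap does not show that the neighbours are equal. The ranges of Mir292 and Mir291a did not overlap, nor did those of Mir291b and Mir290a.

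Within a library, where the difference between the pools does not enter, the steps were clearer. Mir293 had 2.66 times the reads of Mir294 in replicate 2 (95% exact interval 2.36 to 3.01) and 2.60 times in replicate 1 (2.12 to 3.22). Mir294 over Mir292 was 1.31 in replicate 2 (1.12 to 1.53) and 1.09 in replicate 1 (0.845 to 1.42), so that replicate 1 does not set these genes apart. Mir292 over Mir291a was 3.61 in replicate 2 (2.80 to 4.69) and 3.55 in replicate 1 (2.39 to 5.39). For Mir291a over Mir295 and for Mir295 over Mir291b the interval in replicate 1 included equal counts.

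The make-up of the cluster was similar in the pools. Mir293 held 54.6% of the cluster's reads in replicate 2 (95% Wilson interval 52.3 to 56.8%) and 51.8% in replicate 1 (47.9 to 55.6%). Mir294 held 20.5% in replicate 2 (18.7 to 22.4%) and 19.9% in replicate 1 (17.0 to 23.2%). Mir292 held 15.6% in replicate 2 (14.0 to 17.4%) and 18.2% in replicate 1 (15.4 to 21.4%). Mir291a, Mir295 and Mir291b held 4.34%, 2.96% and 1.87% in replicate 2, and 5.13%, 3.11% and 1.87% in replicate 1. For each of the 7 genes the intervals of the libraries overlapped.

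**Figure D2:**
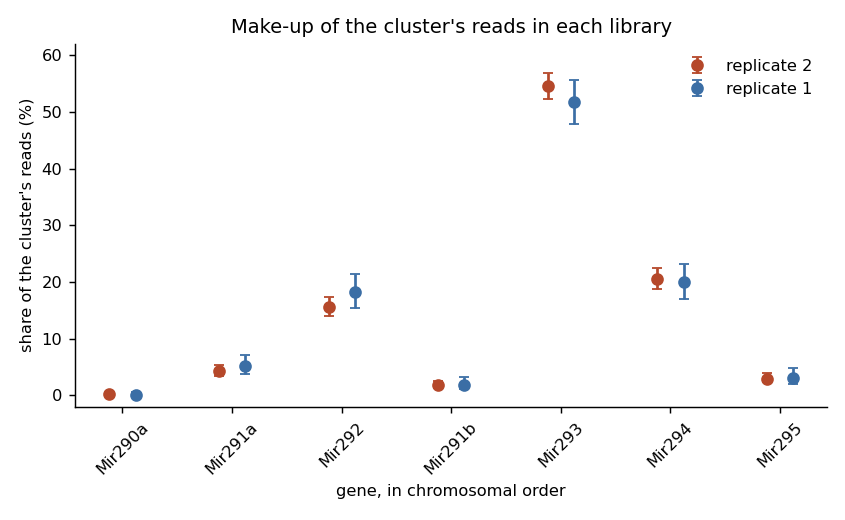
Share of the cluster's reads held by each member in replicate 2 (left point) and replicate 1 (right point), with 95% Wilson intervals as bars. The intervals of the libraries overlap for every gene, and Mir293 holds 54.6% in replicate 2 and 51.8% in replicate 1.

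The total, in contrast, differed between the pools. The summed reads of the cluster were 2.54-fold higher in replicate 2 (log2 ratio 1.35, SE 0.0662 from counting, 95% counting interval 2.33- to 2.78-fold), with library sizes scaled by TMM. In whole tissue, a larger share of cells with these microRNAs and more of them per cell cannot be told apart. Of the members, 5 reached the mean of 10 CPM used for comparing genes, and Mir295 did so only through its level in replicate 2. All 5 were at least 2-fold higher in replicate 2, as were 18 (5.33%) of the 338 genes of that level. Among the 154 genes with a mean from 10 to below 200 CPM, the range in which the members lie, the share was 8.44%. The 338 and the 154 genes both include the 5 members. The log2 ratio was above 0 in 5 of 5 and in 47.3% of the 338. The median log2 ratio of the 5 members was 1.26, beside −0.03 over the 338 genes, whose central 95% ran from −0.98 to 1.25. Over the 333 genes other than the members the median was −0.03, and the central 95% ran from −0.98 to 1.13. Over the 154 genes in the members' range of level the median was −0.04. Their central 95% ran from −1.04 to 1.44, which holds the ratios of all 5 members. The members come from 1 primary transcript, as far as is known, so they are not 5 independent observations. With 1 library per pool no test between the pools was made, and the difference has no replicate check.

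The members' own ratios were close to each other. Mir293 was 2.68-fold higher in replicate 2 (log2 ratio 1.42, SE 0.0913) and Mir294 2.61-fold (1.39, SE 0.148). Mir295 was 2.39-fold higher (1.26, SE 0.374), Mir292 2.18-fold (1.13, SE 0.158) and Mir291a 2.13-fold (1.09, SE 0.297). Mir291b, below the level for comparison, was 2.48-fold higher (1.31, SE 0.476). The counting intervals of Mir293 (2.37 to 3.03) and Mir294 (2.14 to 3.19) lay above 2-fold, and those of Mir292, Mir295, Mir291a and Mir291b reached below it. Among the 15 pairs of these 6 genes, 0 had a difference of log2 ratios whose 95% counting interval, not adjusted for the number of pairs, left out 0. The intervals are wide for the low genes, −1.13 to 1.24 between Mir291b and Mir295, so that unequal ratios are not detectable at this depth for them. Between Mir293 and Mir294 the difference was 0.04 (−0.30 to 0.38), and between Mir292 and Mir293 it was −0.30 (−0.65 to 0.06).

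**Figure D3:**
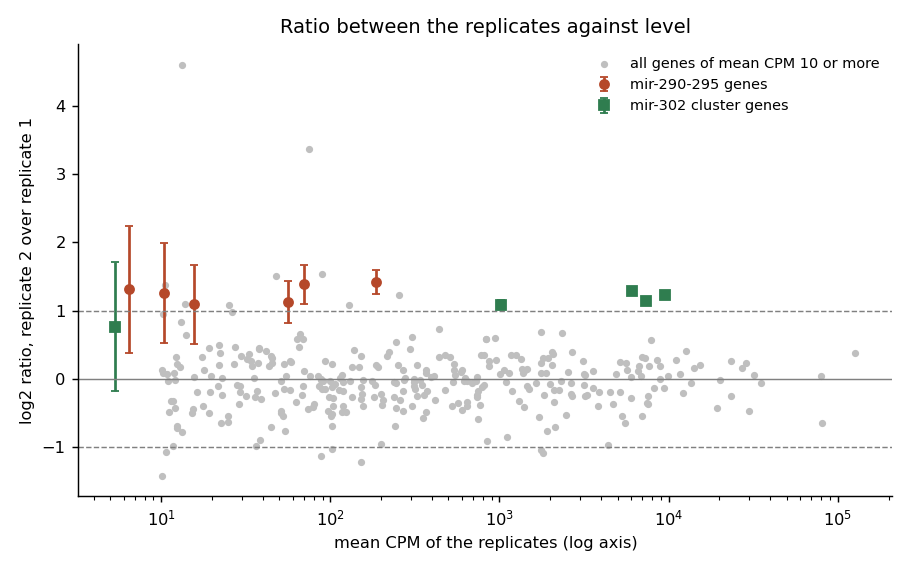
Log2 ratio of replicate 2 over replicate 1 against the mean CPM of the replicates for all genes of mean CPM 10 or more (grey), the 6 mir-290-295 genes with reads in both libraries (circles) and the mir-302 cluster genes (squares), with 95% counting intervals as bars and dashed lines at 2-fold. The mir-290-295 genes lie between 1.09 and 1.42, above most grey points and below the highest, Mir184 at 4.62.

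The mir-302 cluster of chromosome 3 (Mir302a to Mir302d and Mir367) was the much more abundant of the pair. It is known for the same seed in epiblast and early embryonic tissue, a seed that RefSeq gave here to Mir302b and Mir302d. Its 5 genes had 123065 reads in replicate 2 and 47695 in replicate 1. The mir-290-295 reads came to 1.48% of the mir-302 reads in replicate 2 and 1.35% in replicate 1, a log2 ratio of −6.15 ± 0.0955 (SD, n = 2) that needs no scaling between libraries. Without the genes of both clusters that share 20 bases with another locus, Mir302a and Mir302b among them, this log2 ratio was −4.74. In sum, the mir-302 genes were 2.32-fold higher in replicate 2 (log2 ratio 1.21, SE 0.00778). The ratio of the mir-290-295 sum was higher than that of the mir-302 sum by 0.13 on the log2 scale, with a counting interval of 0.0039 to 0.26 that takes no other error into account. Mir302b was at 1.29, Mir302a at 1.23, Mir302d at 1.15 and Mir302c at 1.09. Mir367 had 25 reads in replicate 2 and 13 in replicate 1 (0.76, SE 0.486). The genes of the 2 clusters made up 9 of the 18 genes at least 2-fold higher in replicate 2. The other 9 included the highest ratios of the 18, those of Mir184 and Mir211, which are known from eye and pigment cells. Mir184 had 95 reads in replicate 2 and 3 in replicate 1 (log2 ratio 4.62, SE 0.785), and Mir211 had 504 in replicate 2 and 43 in replicate 1 (3.38, SE 0.228). The Hox-embedded genes Mir10b (1.54), Mir196b (1.5) and Mir10a (1.08) were also among them, with Mir122, Mir449a, Mir2137 and Mir5126 (1.09). Of these genes Mir184, Mir122 and Mir2137 reached the mean of 10 CPM only through their levels in replicate 2. Mir204, another gene known from the eye, was not past 2-fold, with 987 reads in replicate 2 and 775 in replicate 1 (0.19, SE 0.0692). Some markers of other tissues differed between the pools in the direction of the cluster. They were named because they passed 2-fold, and the summed marker lists below ran from −0.78 to 0.27, apart from the single liver gene Mir122. The part of these genes in the cluster's ratio was not tested.

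Mir350, another gene with a seed of the cluster, had 2587 reads in replicate 2 and 2628 in replicate 1, a log2 ratio of −0.18 (SE 0.0400). The 6 genes of the mir-17 family, in which the shared letters stand 1 base further in, had log2 ratios from −0.07 to 0.40 with a median of 0.04. Its leading genes Mir17 and Mir20a, known from dividing cells, were at 0.03 and 0.06. In sum this family had 168535 CPM in replicate 2 and 162117 CPM in replicate 1, while the mir-290-295 cluster had 495 CPM in replicate 2 and 195 CPM in replicate 1.

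Outside these clusters and among genes of mean CPM 10 or more, the genes whose log2 ratio was closest to the 1.35 of the cluster's sum were Mir122 (1.38), Mir449a (1.23), Mir196b (1.5), Mir10b (1.54) and Mir2137 (1.10). This likeness rests on 2 libraries and so on 1 number per gene. Mir449a had 1309 reads in replicate 2 and 501 in replicate 1. Mir10b had 492 reads in replicate 2 and 152 in replicate 1, and Mir196b had 260 in replicate 2 and 82 in replicate 1. Mir2137 had 70 reads in replicate 2 and 29 in replicate 1, and Mir122 had 56 in replicate 2 and 19 in replicate 1. Mir2137 (8.79 CPM in replicate 1) and Mir122 (5.76 CPM in replicate 1) reached the mean of 10 CPM only through replicate 2. Mir122 is known from hepatocytes, Mir449a from multiciliated cells, and Mir196b and Mir10b lie in Hox clusters. They belong to no shared list with the cluster.

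Over the lists of cell type markers used here, which hold no eye, pigment or Hox genes, the summed log2 ratios ran from −0.78 in neurons to 0.27 in epithelium, apart from the single liver gene Mir122, which had 15.2 CPM in replicate 2 and 5.76 CPM in replicate 1. The neural progenitor list held Mir92b (log2 ratio 0.26) and Mir9-3 (−1.03) as its leading genes, and 3 of 3 counted members had reads. Its summed level was 25420 CPM in replicate 2 and 21383 CPM in replicate 1. The neuron list summed to 900 CPM in replicate 2 and 1550 CPM in replicate 1, with Mir137 at −0.86 and Mir128-1 at 0.04. The 9 let-7 genes summed to 4524 CPM in replicate 2 and 8853 CPM in replicate 1, a log2 ratio of −0.96, with Mirlet7g at −0.97 and Mirlet7i at −1.05. The let-7 sum thus differed between the pools in the direction opposite to the mir-290-295 sum, and its part in that result was not tested.

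The remaining lists are given by their sums. The epithelium list of 7 genes had 4092 CPM in replicate 2 and 3397 CPM in replicate 1, led by Mir205 (log2 ratio 0.28) and Mir429 (0.58). The rodent repeat microRNAs, chosen by symbol for the placenta and trophoblast, had 7864 CPM in replicate 2 and 6579 CPM in replicate 1, led by Mir467c (0.40) and Mir467d (0.30), with 42 of 69 genes at 0. Of these 69 genes, 67 share 20 bases with other loci. Mir126a, the endothelial marker, was at 0.22. The mesenchyme list of 6 genes was at −0.29, with Mir143 at −0.35 and Mir214 at −0.19. The erythroid list was at −0.11, with Mir451a at −0.26 and Mir144 at 0.45, and the leukocyte list was at 0.19, with Mir142b, whose reads stand in the column taken as the opposite strand, at 0.35 and Mir223 at −0.01. Heart and skeletal muscle genes summed to 66.5 CPM in replicate 2 and 55.2 CPM in replicate 1, led by Mir208b (0.26) and Mir206 (0.08), and Mir1a-1, Mir133a-1 and Mir133a-2 were at 0. These 3 genes share 20 bases with other loci, as do 5 of the 6 in the neuron list, 5 of the 9 let-7 genes and 2 of the 3 in the neural progenitor list, so that a low count or a 0 need not mean absence. The parts of these cells in the ratio of the mir-290-295 cluster were not tested.

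**Figure D4:**
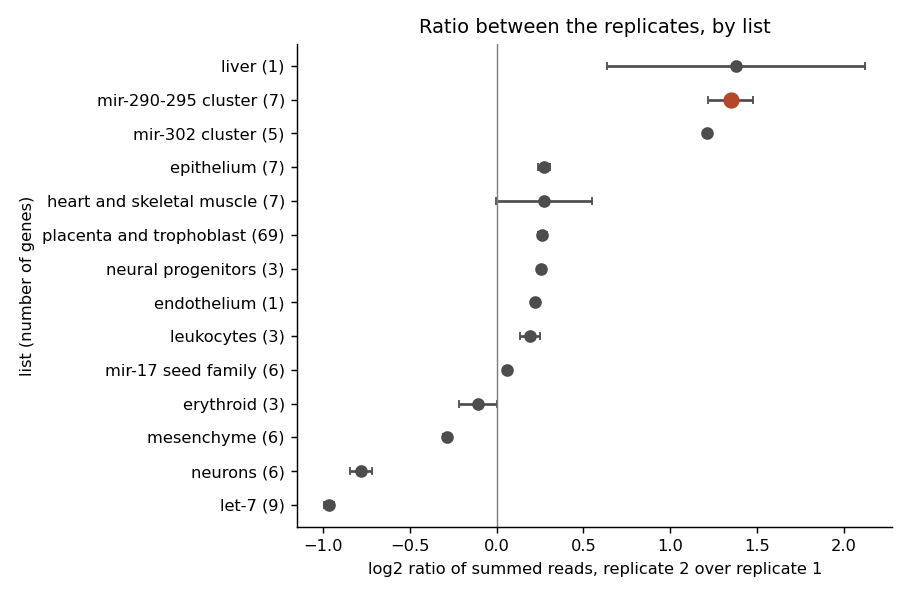
Log2 ratio of the summed reads of each list, replicate 2 over replicate 1, with 95% counting intervals as bars and the number of genes in brackets. The mir-290-295 cluster (coloured point, 1.35) lies near the mir-302 cluster (1.21) and the single liver gene (1.38), and the let-7 list is lowest at −0.96.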

How the data were processed

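Each library has a deposited table of raw counts for every microRNA gene. The authors used the mm10 assembly and the GENCODE M4 annotation, per the text deposited with each table. The sources used here do not name the aligner, the adapter trimming or the meaning of the 3 count columns. The first column equals the sum of the other columns in every gene row and was used, and the second was an alternative. The 4 rows that name no gene, which held 60.9% of replicate 2 and 57.8% of replicate 1 as unmapped, multiply mapped and unassigned reads, were left out of library sizes.

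Identifiers were matched without version to GENCODE M21 on GRCm38, the build of mm10 (1894 of 1973 matched), and sequences are from RefSeq (GRCm38.p6). Mature products were tied to counted genes by position. Precursors were compared by stretches of 20 bases.

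CPM used total gene-assigned reads. Log2 ratios (replicate 2 over replicate 1) were computed with TMM scaling (edgeR 4.0.16) after adding 0.5 reads. Standard errors and 95% intervals of ratios come from counts. The log2 ratio was tested on simulated data with 200 changed genes. Those data held counting error only, so they do not test the spread between pools. With 1 group there is no contrast between conditions and no p-value. Nothing in the labels says that the pools came from separate litters, and their spread may be partly technical. Alternatives were DESeq2 1.42.0 size factors, total counts, other filters and added reads, thinning, the second column, leaving out the most abundant gene and leaving out a replicate. The members and lists were chosen with earlier results of these data known. The named genes are all members, the mir-302 cluster genes, the 5 genes of mean CPM 10 or more outside both with the closest log2 ratio, the neighbours in level of the highest and lowest member, and the 2 highest genes of each list. Mir350 was named for its seed, and Mir184, Mir211, Mir10a and Mir5126 as the rest of the 18 genes past 2-fold, after their values were seen. Mir204 was named beside Mir184 and Mir211, also after its value was seen. Scripts ran on R 4.3.3 and Python 3.11.15 with scipy 1.17.1, pandas 2.3.3, numpy 2.4.6 and matplotlib 3.10.9.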

Additional observations from a re-analysis of the deposited data

How the results depend on the processing

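The log2 ratio of the cluster's sum lay between 1.34 and 1.38 under 6 alternatives, and between 4 and 6 members were at least 2-fold higher in replicate 2. With 5 added reads Mir291a was at 0.99, and with every member that has reads in both libraries the count was 6. The number of all genes at least 2-fold higher in replicate 2 was 37 of 522 (7.09%) from a mean of 1 CPM, 128 of 769 (16.6%) with no filter, and 9 of 329 (2.74%) without the genes of both clusters. DESeq2 size factors put the mir-302 cluster sum at 1.25, outside its narrow counting interval. The log2 ratio of the cluster over the mir-302 cluster was −4.74 without genes that share sequence, which leaves out Mir302a, Mir302b, Mir291a and Mir291b. That value compares other sums and does not correct for multiply mapped reads. With all genes of both clusters the log2 ratio lay from −6.21 to −6.08 over single replicates. The cluster's share of gene-assigned reads lay from 0.0195% to 0.0495%. That share was 0.0138% of all reads. The order of the 7 members was the same under 4 alternatives. No paired analysis was possible because there is 1 group. Depth limits the genes below Mir292, and Mir290a gives no ratio.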
